A study of Mus musculus with 12 samples.

Results

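Urothelium lines the renal pelvis, ureter and bladder, and collecting ducts carry urine from the nephrons to it, and in the kidney both grow from the ureteric bud. Expression of 10 genes of these epithelia was followed in cultured fetal mouse kidneys with activated beta-catenin, which relays canonical Wnt signals to Tcf and Lef factors in the nucleus. They were Upk3a, Krt7, Krt18, Cldn4, Wfdc2, Elf5, Grhl2, Aqp2, Aqp3 and Tfap2a. The genes were chosen by name with earlier results of these data known. Each was found through probe sets that the platform annotation assigns to that symbol alone. These 10 genes had 18 probe sets, of 12393 genes and 22690 probe sets in all.

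The study compared 6 beta-catenin activated with 6 wildtype samples of C57BL/6 fetal kidney, each on 1 array. Pregnant mice of both groups received tamoxifen at 10.5 dpc (days post coitum), 2 mg per 40 g of body weight, and the kidneys were taken at 10.5 dpc and cultured for 3 to 4 days on porous membranes. The labels give the activated kidneys as beta-catenin activated and name tumors in their source. They do not name the allele or the promoter that drove recombination, the culture time of each kidney, or whether each sample came from its own embryo, so the p-values measure the spread between these samples, which may be technical. Numbers in the sample titles form 2 runs, called here the higher run (activated 4 to 6 and wildtype 4 to 6) and the lower run (activated 1 to 3 and wildtype 1 to 3). What a run stands for is not stated, and each gene is given by genotype and by run.

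Values are log2(intensity + 16) after quantile normalisation, and each gene is read from its brightest probe set. On this scale 27 probe sets for bacterial control transcripts reached at most 5.45, which serves here as the upper edge of background. The target of the activation, Ctnnb1, averaged 12.92 ± 0.06 on activated arrays and 12.97 ± 0.10 on wildtype arrays (SD, n = 6 each), a level of transcript that does not test the label. The arrays do show epithelium in every group: the general epithelial keratin Krt8 lay between 8.90 and 10.40 on activated arrays and between 9.37 and 10.91 on wildtype arrays. In RNA from whole kidneys, fewer cells of a type and less RNA per cell cannot be told apart.

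The members differ in role. Upk3a encodes uroplakin 3a, a protein of the plaques on the surface of urothelial cells. Krt7 and Krt18 encode keratins of simple and ductal epithelia, and keratin 18 pairs with keratin 8. Cldn4 encodes claudin 4, a tight junction protein of the collecting duct and other epithelia, and Wfdc2 a secreted protein with whey acidic protein domains. Aqp2 and Aqp3 encode the water channels of the apical and the basolateral membrane of collecting duct principal cells. Elf5 (an Ets factor), Grhl2 (a Grainyhead-like factor) and Tfap2a (AP-2 alpha) are transcription factors of epithelia, and Grhl2 is known to act on junction genes such as those for claudins and E-cadherin.

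The start regions of Upk3a, Krt7 and Wfdc2, the members that passed the test between the runs in wildtype arrays, are printed with that of Krt18, because one of the members, Tfap2a, encodes a factor that binds an AP-2 motif. Krt18 did not pass between the runs as reported, and is the only other member found with a match to that motif. The printed regions are therefore no fair sample of the members for this motif. Each runs from 250 bases before the RefSeq start to 50 bases after it (assembly GRCm38.p6, plus strand for all 4 genes). Upk3a starts in chr15:85016891-85017190, Krt7 in chr15:101412153-101412452, Krt18 in chr15:102027966-102028265 and Wfdc2 in chr2:164562465-164562764. Capitals mark each match to the AP-2 motif GCCNNNGGC, searched on both strands.
Upk3a: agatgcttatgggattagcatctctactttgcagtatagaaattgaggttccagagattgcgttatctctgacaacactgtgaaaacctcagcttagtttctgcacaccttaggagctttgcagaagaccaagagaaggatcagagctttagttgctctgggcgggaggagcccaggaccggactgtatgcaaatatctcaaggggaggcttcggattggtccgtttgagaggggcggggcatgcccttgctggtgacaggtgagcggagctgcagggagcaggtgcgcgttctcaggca
Krt7: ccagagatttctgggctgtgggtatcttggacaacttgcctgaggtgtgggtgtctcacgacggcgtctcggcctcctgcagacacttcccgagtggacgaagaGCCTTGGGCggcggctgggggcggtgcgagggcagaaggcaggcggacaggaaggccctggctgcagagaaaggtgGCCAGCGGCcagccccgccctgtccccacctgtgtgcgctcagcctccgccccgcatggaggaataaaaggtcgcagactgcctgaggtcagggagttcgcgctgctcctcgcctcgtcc
Krt18: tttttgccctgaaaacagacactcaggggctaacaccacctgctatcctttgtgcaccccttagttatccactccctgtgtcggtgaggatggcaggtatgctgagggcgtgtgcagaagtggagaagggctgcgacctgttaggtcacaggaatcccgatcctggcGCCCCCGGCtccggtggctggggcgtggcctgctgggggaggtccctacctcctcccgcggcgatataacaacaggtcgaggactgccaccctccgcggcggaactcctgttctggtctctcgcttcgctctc
Wfdc2: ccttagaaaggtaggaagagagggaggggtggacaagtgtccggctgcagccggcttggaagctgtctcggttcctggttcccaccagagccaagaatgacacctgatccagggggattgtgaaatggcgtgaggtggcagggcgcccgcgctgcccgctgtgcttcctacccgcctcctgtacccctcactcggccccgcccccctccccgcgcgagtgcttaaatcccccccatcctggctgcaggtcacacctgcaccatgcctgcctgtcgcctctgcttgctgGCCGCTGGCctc

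RefSeq start regions were at hand for 9 of the 10 members, with 12 regions in all since 3 genes have more than one start. The AP-2 motif was found in 4 of the 12 regions, against 16.6% of all 32851 regions, but the 4 include a pair from Wfdc2 that differs by a single base in position and holds the same match, so they stand for 3 genes. They belong to Krt7 with 2 matches, which begin at bases -146 and -70 from the start, to Krt18 with 1 match at base -83, and to Wfdc2, whose match lies after the start. Upk3a had no such match. The Tcf/Lef motif CTTTGA was found in 1 of the 12 regions, at the second start of Elf5, against 16% of all regions. The Grainyhead-like motif AACCNGTT (2.09% of all regions) and the Foxa motif TGTTTAC (3.65% of all regions) were in none of the 12. The AP-2 motif reads the same on both strands, none of the 4 motifs contains another, and a match is a description of the sequence, not a site.

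Between activated and wildtype kidneys none of the 10 genes passed the test over all 12 arrays. All adjusted p in this paragraph are limma's, with Benjamini-Hochberg adjustment over 12393 genes. The call rate over all genes was 0.0242% (3 genes), and by brightest probe set 0 of the 10 members reached even an unadjusted p under 0.05. Of the members, 2 had a positive and 8 a negative difference, with a median of -0.13 against -0.01 over all genes. No member had groups that did not overlap, against 0.5% of all genes. With the run as a term the calls over all genes numbered 13 (0.105%) and the smallest adjusted p of a member was 0.442, for Elf5.

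Elf5 had the largest difference by genotype over all arrays. It was 6.39, 6.02, 6.57, 7.66, 7.26 and 7.08 on activated arrays 1 to 6, against 7.79, 6.48, 6.96, 7.54, 7.70 and 7.77 on wildtype arrays 1 to 6. The activated arrays lay lower on the whole, but the groups overlapped. The difference was -0.54 (SE 0.29, 95% interval -1.16 to 0.08, adjusted p = 0.869). With the run as a term the interval of Elf5 was -0.98 to -0.10 (unadjusted p = 0.0188, where 8.79% of all genes were under 0.05). A dimmer probe set of Elf5 differed by -0.53 (SE 0.23, unadjusted p = 0.0375 and adjusted p = 0.853 by limma over all probe sets).

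The water channel Aqp2 averaged 5.21 ± 0.75 on activated arrays and 5.62 ± 0.70 on wildtype arrays (SD, n = 6 each), a difference of -0.41 (95% interval -1.18 to 0.37). Its basolateral partner Aqp3 averaged 5.78 ± 0.44 on activated arrays and 5.67 ± 0.50 on wildtype arrays, a difference of 0.11 (95% interval -0.44 to 0.66). Both intervals cross 0, and each group spans more than the difference between them.

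Grhl2 averaged 6.99 ± 0.26 on activated arrays and 7.24 ± 0.20 on wildtype arrays (SD, n = 6 each). It was the steadiest member over the 12 arrays, with an SD of 0.25, and its genotype difference of -0.25 had the narrowest interval, from -0.58 to 0.08. For the other members the intervals were wider. Krt7 differed by -0.00 (95% interval -0.94 to 0.94) and Krt18 by 0.09 (95% interval -0.59 to 0.77). Upk3a, the most variable member with an SD of 1.32, differed by -0.09 (95% interval -1.50 to 1.32). With the run as a term these intervals narrowed, to -0.80 to 0.61 for Upk3a, -0.55 to 0.55 for Krt7 and -0.56 to 0.74 for Krt18.

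**Figure D1:**
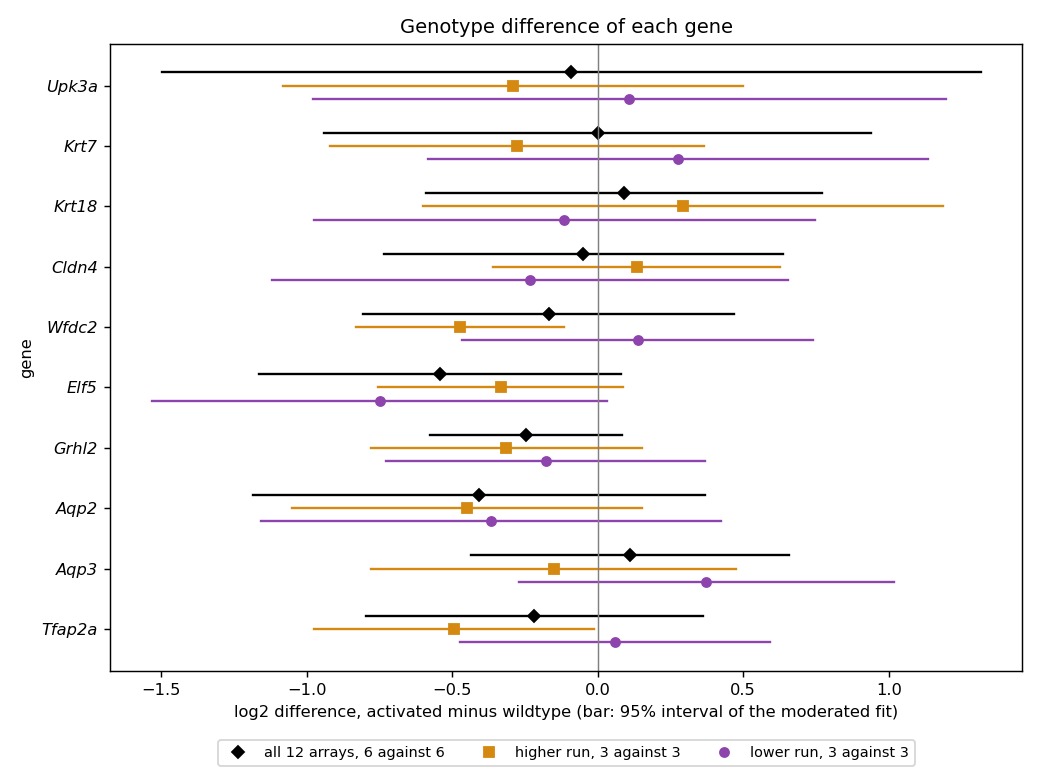
Difference of each gene between activated and wildtype arrays, as the mean log2 difference (activated minus wildtype) with its 95% interval, over all 12 arrays (diamonds), in the higher run (squares) and in the lower run (circles). All 10 intervals over all arrays cross 0, and only those of Wfdc2 and Tfap2a in the higher run do not.

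Within the lower run, with 3 activated against 3 wildtype arrays, again 0 of 10 members passed, where 0.597% of all genes did (74 genes). By brightest probe set 0 of the 10 had an unadjusted p under 0.05. Elf5 was 6.39, 6.02 and 6.57 on activated arrays and 7.79, 6.48 and 6.96 on wildtype arrays, which overlap in 1 activated array. The difference was -0.75 (SE 0.35, adjusted p = 0.721 by limma). Its dimmer probe set was 4.60, 4.41 and 4.36 on activated arrays and 5.65, 5.83 and 4.92 on wildtype arrays, so those groups did not overlap, but the activated values lie within the range of background. The difference of -1.01 (SE 0.30) had an unadjusted p of 0.00714 and an adjusted p of 0.397, both by limma over all probe sets. For brightest probe sets, none of the 10 members had groups without overlap in that run, against 12.5% of all genes.

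Within the higher run 0 of 10 members passed, where 0.00807% of all genes did (1 gene), but 2 members had an unadjusted p under 0.05, as had 6.36% of all genes. The same 2 had groups without overlap, as had 11.3% of all genes. Of the members, 2 had a positive and 8 a negative difference in this run, with a median of -0.30 against -0.00 over all genes. Wfdc2 was 10.23, 10.11 and 9.67 on activated arrays, against 10.30, 10.45 and 10.68 on wildtype arrays. Every activated value lay below every wildtype value, and the difference was -0.47 (SE 0.16, 95% interval -0.83 to -0.12, adjusted p = 0.706 by limma). Tfap2a was 6.10, 5.98 and 6.06 on activated arrays, against 6.80, 6.59 and 6.24 on wildtype arrays. These too were separate, with a difference of -0.50 (SE 0.21, 95% interval -0.98 to -0.01, adjusted p = 0.776 by limma). A second probe set of Tfap2a differed by -0.31 (SE 0.20), with overlap.

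The genotype difference itself was then set against the run. Over all genes 0.331% (41 genes) passed this test, and 0 of the 10 members did. By brightest probe set none had an unadjusted p under 0.05. The largest value of a brightest probe set was that of Wfdc2, whose genotype difference was lower in the higher run by 0.61 on the log2 scale (-0.61, SE 0.34, adjusted p = 0.935 by limma). For Tfap2a the value was -0.55 (SE 0.31, adjusted p = 0.932 by limma). The dimmer probe set of Elf5 had a larger value, 0.97 (SE 0.37). Its unadjusted p was 0.0206 and its adjusted p 0.725, both by limma over all probe sets, of which 5.52% were under 0.05 unadjusted.

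Between the runs several members did pass the test. In activated arrays Upk3a rose and Tfap2a fell in the higher run, where 4.91% of all genes passed (609 genes, 422 of them higher). In wildtype arrays Upk3a, Krt7 and Wfdc2 rose in the higher run, where 5.16% of all genes passed (640 genes, of which 437 were higher). The median over the 10 members was 0.81 in activated arrays, against -0.00 over all genes, and 0.76 in wildtype arrays, against -0.03 over all genes. Because the members were chosen with earlier results of these data known, these medians describe them and do not test the gene class. Both comparisons take their spread from the same fit of 4 groups of 3 arrays, and no member's run difference was shown to differ between the genotypes.

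**Figure D2:**
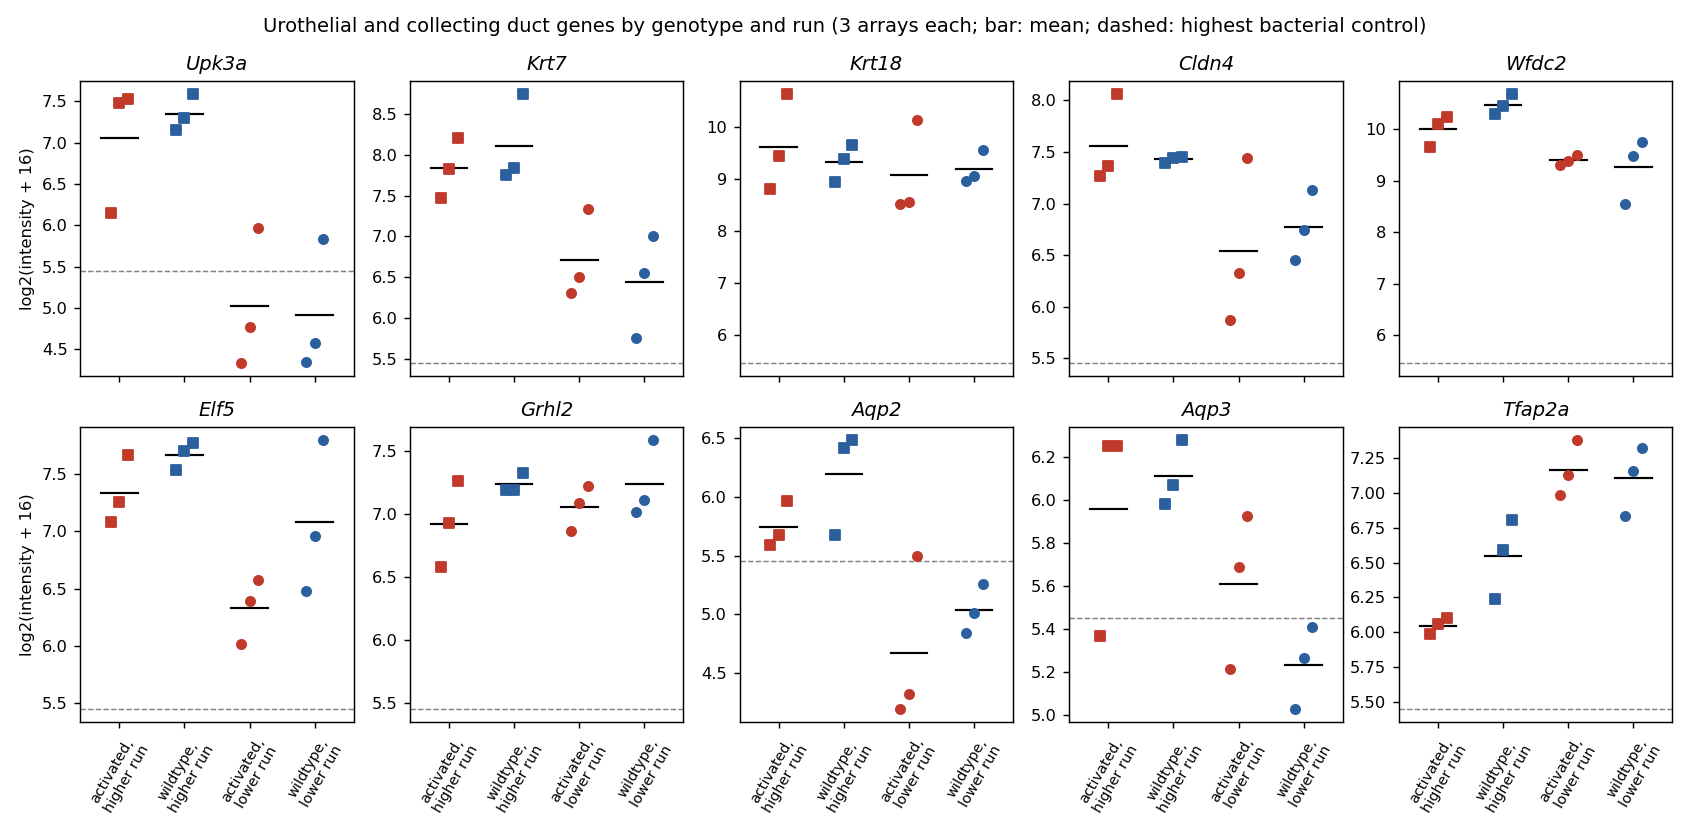
Level of each of the 10 genes on each array as log2(intensity + 16), by genotype and run, with 3 arrays a group, the group mean as a bar and the highest bacterial control (5.45) as a dashed line; each panel has its own axis. In the higher run Upk3a is above the dashed line on all 6 arrays, against 2 of 6 in the lower run, while Tfap2a sits lower in the higher run.

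Upk3a had the widest difference between the runs. In activated kidneys it was 7.53, 7.49 and 6.15 in the higher run, against 5.97, 4.78 and 4.34 in the lower run. Wildtype kidneys had 7.15, 7.58 and 7.30 in the higher run, against 4.35, 4.57 and 5.83 in the lower run. All 6 arrays of the higher run lay above the bacterial controls, and in the lower run only activated 1 and wildtype 3 did.

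The higher run exceeded the lower by 2.03 in activated arrays (SE 0.48, 95% interval 1.00 to 3.05, adjusted p = 0.0233 by limma). The excess was 2.43 in wildtype arrays (SE 0.48, 95% interval 1.40 to 3.45, adjusted p = 0.00779 by limma). Both lower-run means, 5.03 in activated and 4.92 in wildtype arrays, were below the highest bacterial control, so no fold is given. Over the alternative settings the excess ran from 1.15 to 3.00 in activated and from 1.39 to 3.55 in wildtype arrays. The activated call passed under 20 of 25 alternative settings, with adjusted p between 0.00992 and 0.112. It missed the threshold without activated 2 (difference 1.90), activated 3 (1.68), activated 4 (1.79) or activated 5 (1.81), and in a fit of the activated arrays alone. The wildtype call passed under all 25, with adjusted p between 0.00427 and 0.0408.

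The ductal keratin gene Krt7 was 7.83, 7.46 and 8.20 in activated arrays of the higher run, against 6.31, 7.33 and 6.50 in those of the lower run. Wildtype arrays had 7.75, 8.74 and 7.84 in the higher run, against 7.00, 6.56 and 5.76 in the lower run. In both genotypes the runs did not overlap, and every value was above background.

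The run difference of Krt7 was 1.11 in activated arrays (SE 0.36, adjusted p = 0.108 by limma) and 1.67 in wildtype arrays (SE 0.36, 3.17-fold, adjusted p = 0.0139 by limma). The wildtype call was lost without wildtype 3 (1.33, adjusted p = 0.064) or wildtype 5 (1.35, adjusted p = 0.0778), and over its 25 alternatives the adjusted p ran from 0.00149 to 0.0778. Krt18, by contrast, overlapped between the runs. It averaged 9.61 ± 0.93 in activated arrays of the higher run and 9.07 ± 0.93 in those of the lower run (SD, n = 3 each), with single arrays at 10.62 and 10.14 that stood above the rest of their groups, and the difference was 0.55 (95% interval -0.40 to 1.49). Wildtype arrays averaged 9.32 ± 0.35 in the higher run and 9.18 ± 0.32 in the lower run, a difference of 0.14 (95% interval -0.81 to 1.08).

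Wfdc2 was far above background on every array. Activated arrays had 10.23, 10.11 and 9.67 in the higher run, against 9.38, 9.51 and 9.30 in the lower run. Wildtype arrays had 10.30, 10.45 and 10.68 in the higher run, against 9.76, 8.54 and 9.48 in the lower run. Neither genotype had overlap between the runs. The difference was 0.61 in activated arrays (SE 0.24, adjusted p = 0.215 by limma). It was 1.22 in wildtype arrays (SE 0.24, 2.32-fold, adjusted p = 0.0088 by limma), a call that passed under all 25 alternatives, with adjusted p between 0.00418 and 0.0451.

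The water channel genes read close to background. Aqp2 was 5.59, 5.67 and 5.96 in activated arrays of the higher run, against 4.20, 5.50 and 4.32 in those of the lower run. In wildtype arrays Aqp2 was 6.48, 6.42 and 5.68 in the higher run, against 5.01, 5.26 and 4.85 in the lower run. All 6 arrays of the higher run were above the bacterial controls, and in the lower run only activated 2 was. The runs did not overlap in either genotype, but the differences of 1.07 in activated (SE 0.34, adjusted p = 0.0958 by limma) and 1.15 in wildtype arrays (SE 0.34, adjusted p = 0.0657 by limma) missed the threshold.

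Aqp3 was 6.25, 6.25 and 5.37 in activated arrays of the higher run, against 5.69, 5.22 and 5.92 in those of the lower run. The activated arrays overlapped between the runs, and the difference was 0.35 (SE 0.28, adjusted p = 0.625 by limma). In wildtype arrays Aqp3 was 5.98, 6.07 and 6.28 in the higher run, against 5.41, 5.26 and 5.03 in the lower run, none of which was above the bacterial controls, a difference of 0.87 (SE 0.28, adjusted p = 0.0998 by limma). The other 2 probe sets of Aqp3 were never above the bacterial controls.

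The tight junction gene Cldn4 was 7.27, 7.36 and 8.06 in activated arrays of the higher run, against 6.32, 7.44 and 5.87 in those of the lower run, with a difference of 1.02 (SE 0.34, adjusted p = 0.124 by limma). Activated 2 of the lower run read above 2 of the 3 activated arrays of the higher run. In wildtype arrays Cldn4 was 7.40, 7.45 and 7.44 in the higher run, against 6.45, 6.74 and 7.13 in the lower run, so these runs did not overlap, with a difference of 0.65 (SE 0.34, adjusted p = 0.349 by limma).

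Of the transcription factors, Elf5 was higher in the higher run in activated arrays, 7.66, 7.26 and 7.08 against 6.39, 6.02 and 6.57 in the lower run, with no overlap and a difference of 1.01 (SE 0.29, adjusted p = 0.0672 by limma) that missed the threshold. In wildtype arrays its difference was 0.59 (SE 0.29, adjusted p = 0.312 by limma), and its dimmer probe set differed by -0.15 there. The run difference of Grhl2 was -0.13 in activated (95% interval -0.61 to 0.34) and 0.00 in wildtype arrays (95% interval -0.47 to 0.48).

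Tfap2a ran the other way. It was 6.10, 5.98 and 6.06 in activated arrays of the higher run, against 7.38, 7.13 and 6.98 in the lower run, and in wildtype arrays 6.80, 6.59 and 6.24 in the higher run, against 7.32, 6.84 and 7.16 in the lower run. Neither genotype had overlap. The difference was -1.11 in activated arrays (SE 0.22, adjusted p = 0.00699 by limma) and -0.56 in wildtype arrays (SE 0.22, adjusted p = 0.178 by limma). The activated call passed under 24 of 25 alternatives (adjusted p between 0.00176 and 0.244). The exception was the mean of its 3 probe sets, which differed by -0.51: the next brightest probe set differed by -0.48 and the dimmest by 0.07.

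Of the 10 members, 5 had every activated array of the higher run above every one of the lower run (Upk3a, Krt7, Wfdc2, Elf5 and Aqp2), against 11.4% of all genes, and Tfap2a had every one below, against 8.72%. In wildtype arrays 6 lay wholly above (Upk3a, Krt7, Cldn4, Wfdc2, Aqp2 and Aqp3), against 12.3% of all genes, and Tfap2a wholly below, against 12.9%. These counts too describe members chosen with earlier results known, and are no test of the gene class.

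**Figure D3:**
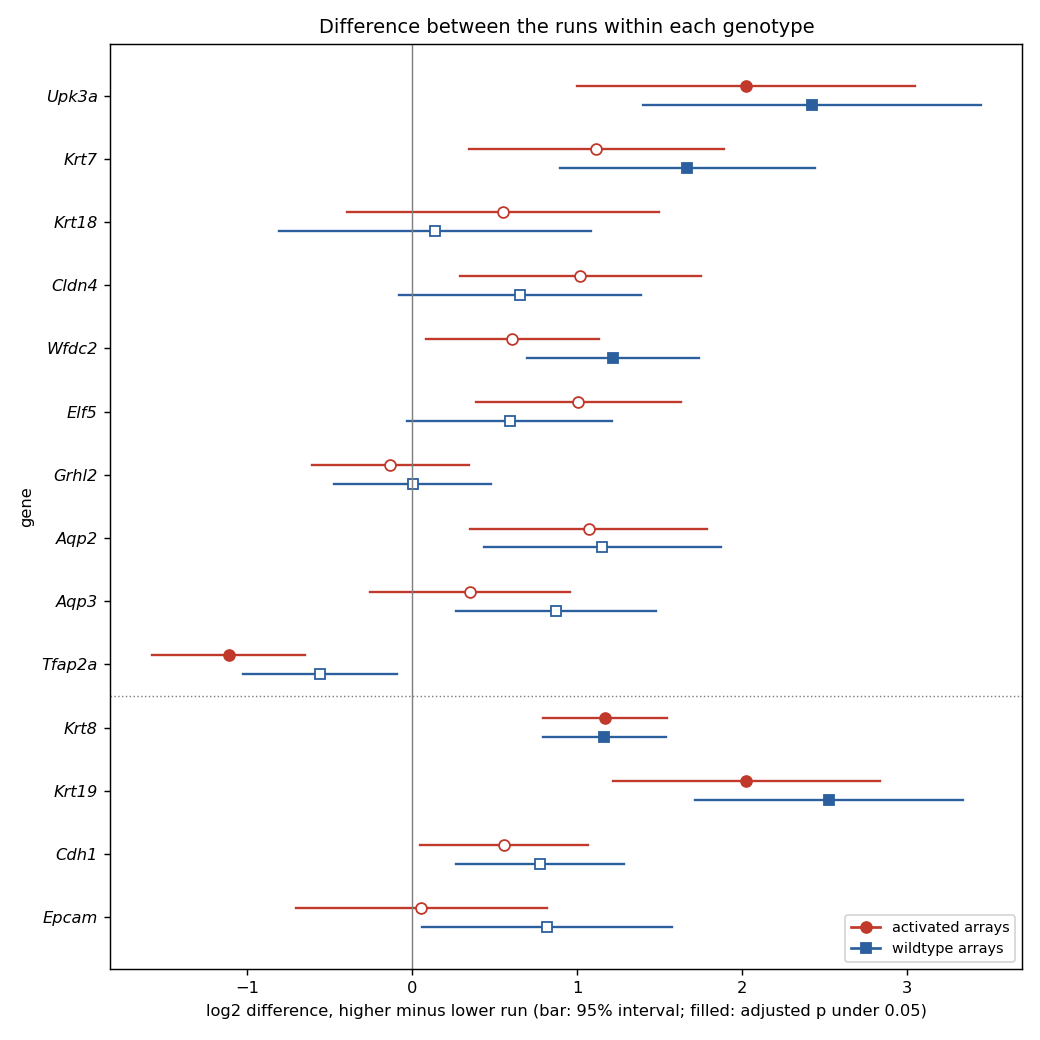
Difference between the runs (higher minus lower run) of each gene, on activated arrays (circles) and wildtype arrays (squares), as the mean log2 difference with its 95% interval; filled symbols have an adjusted p under 0.05, and the 4 genes below the dotted line are general epithelial genes. Upk3a is at 2.03 in activated and 2.43 in wildtype arrays, Tfap2a is at -1.11 and -0.56, and Krt19 is at 2.03 and 2.53.

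Broad epithelial genes moved with the run as well. Krt8, the partner of Krt18, was higher in the higher run by 1.17 in activated arrays (SE 0.17, adjusted p = 0.00109 by limma) and by 1.16 in wildtype arrays (SE 0.17, adjusted p = 0.0011 by limma). Krt19, a ductal keratin, was higher by 2.03 in activated (SE 0.38, adjusted p = 0.00525 by limma) and 2.53 in wildtype arrays (SE 0.38, adjusted p = 0.00109 by limma). The junction cadherin Cdh1 differed by 0.55 in activated and 0.78 in wildtype arrays, and Epcam, an epithelial adhesion protein, by 0.06 and 0.82. Neither passed in either genotype. None of these 4 genes passed for genotype in any of the fits. Within the higher run Epcam differed by genotype by -0.94 (SE 0.33, adjusted p = 0.745 by limma) and Krt8 by -0.33 (SE 0.13, adjusted p = 0.776 by limma). Cdh1 differed there by -0.38 and Krt19 by 0.14.

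Of 16 further urothelial and stratified epithelial genes measured, 2 rose and 0 fell in the higher run in activated arrays, where 4.91% of all genes passed. Their median there was 0.32, with 12 positive and 4 negative differences. In wildtype arrays 3 rose and 0 fell, where 5.16% of all genes passed (median 0.38, with 11 positive and 5 negative). Foxa1, a forkhead factor of urothelium, averaged 8.85 ± 0.50 in activated arrays of the higher run and 6.64 ± 0.21 in those of the lower run, a difference of 2.21 (SE 0.25, adjusted p = 0.000126 by limma). It differed by 1.78 in wildtype arrays (SE 0.25, adjusted p = 0.000787 by limma). Perp, a desmosome protein, rose by 1.63 in activated and 1.71 in wildtype arrays, and Dsp, which encodes desmoplakin, by 0.96 in wildtype arrays. The keratin gene Krt6a went the other way, near background and without passing. It differed by -0.24 in activated and -0.99 in wildtype arrays (adjusted p = 0.114 by limma in wildtype arrays). Between 5 and 7 of the 16 genes were never above the bacterial controls in a given group.

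Of 20 collecting duct genes, 3 rose and 1 fell in the higher run in each genotype. The median was 0.11 in activated arrays (13 positive, 7 negative), against -0.00 over all genes. In wildtype arrays it was 0.25 (12 positive, 8 negative), against -0.03 over all genes. Car2, a carbonic anhydrase, rose by 0.86 in activated and 1.22 in wildtype arrays, and Fxyd4, a regulator of the sodium pump, by 1.01 and 1.32. Ehf, an Ets factor, rose by 1.09 in activated arrays, and Scnn1g, a subunit of the epithelial sodium channel, by 1.24 in wildtype arrays. Hsd11b2, the enzyme that inactivates glucocorticoids in principal cells, fell by 0.92 in activated and 0.70 in wildtype arrays.

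Of 19 general epithelial genes, 3 rose and 0 fell in activated arrays (Krt8, Krt19 and Spint2, a protease inhibitor), and 6 rose and 0 fell in wildtype arrays, with the claudin gene Cldn7 at 1.28, the membrane protease gene St14 at 1.16 and its inhibitors Spint1 and Spint2 at 0.95 and 1.24. The medians were 0.42 in activated and 0.46 in wildtype arrays, against -0.00 and -0.03 over all genes. Not one of these 16, 20 and 19 genes passed for genotype, over all arrays or within either run, and their medians over all arrays were -0.16, -0.20 and -0.17, against -0.01 over all genes. In the higher run the medians were -0.09, -0.32 and -0.30, with 9, 15 and 15 negative, against -0.00 over all genes. The summed intensity of the 19 general epithelial genes in that run was 5482 to 6381 in activated and 7628 to 8903 in wildtype arrays. This sum weighs bright genes most and was not tested, and 11.3% of all genes had groups without overlap in that run. In the lower run the sum was 3538 to 4692 and 4229 to 4739, which overlap.

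Among the epithelial lists, calls by genotype came from the list of ureteric bud genes. Of 13 measured, 1 fell over all arrays, 1 rose and 1 fell in the lower run and 0 passed in the higher run. The gene that rose, Tfap2c, read above the bacterial controls on 1 of 6 wildtype arrays, so these arrays barely show it in wildtype kidneys. Calb1, which encodes the calcium-binding protein calbindin of the ureteric tree, averaged 10.79 ± 0.26 in activated and 11.54 ± 0.17 in wildtype arrays (SD, n = 6 each) and fell by 0.75 (SE 0.12, adjusted p = 0.0417 by limma). That call passed under 9 of 25 alternative settings, with adjusted p between 0.00878 and 0.171 and the difference between -0.83 and -0.69. In the lower run Calb1 fell by 1.02 (adjusted p = 0.00495 by limma), a call that passed under 16 of 17. Tfap2c, a paralogue of Tfap2a, was at 7.92 ± 0.36 in activated arrays of the lower run and 4.46 ± 0.30 in wildtype arrays of that run, where no wildtype array exceeded the bacterial controls, a difference of 3.46 (SE 0.30, adjusted p = 0.000887 by limma). In the higher run it was at 5.73 ± 0.28 in activated and 5.17 ± 0.25 in wildtype arrays, and the genotype difference itself differed between the runs by -2.89 (adjusted p = 0.0039 by limma). Between the runs, Tfap2c fell by 2.19 in activated arrays and was the only one of the 13 to pass in either genotype. In the lower run Tfap2a differed by 0.06 (95% interval -0.47 to 0.59).

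Markers of other cell types also moved with the run, where 4.91% of all genes passed in activated and 5.16% in wildtype arrays. Of 7 ureteric smooth muscle genes, Acta2 and Actg2, both muscle actins, rose in the higher run in both genotypes (Acta2 by 1.40 in activated and 0.97 in wildtype arrays, Actg2 by 1.66 and 1.52). The list had 5 positive and 2 negative differences in activated arrays, and 6 positive and 1 negative in wildtype arrays. Tbx18 averaged 5.96 in wildtype arrays of the higher run, against 6.93 in the lower run. In activated arrays it averaged 6.61 and 6.70, and it passed in neither genotype. The summed intensity of the list was 5724 to 7132 in activated and 4698 to 5518 in wildtype arrays of the higher run, against 2171 to 2802 in activated and 2505 to 2848 in wildtype arrays of the lower run, with no overlap. Most of this sum is Acta2, so it says little of the other genes. Acta2 averaged 12.40 in activated and 12.12 in wildtype arrays of the higher run, against 11.01 and 11.15 in the lower run. Of 6 proximal tubule genes, 1 rose in activated arrays and 3 in wildtype arrays, with Lrp2, the megalin gene, at 0.92 and 1.35. Their summed intensity was 151 to 272 in activated and 343 to 475 in wildtype arrays of the higher run, against 68.2 to 164 in activated and 124 to 172 in wildtype arrays of the lower run. Of 6 macrophage and blood genes, 3 rose and 2 fell in activated arrays and 1 rose and 2 fell in wildtype arrays: the macrophage gene Cd68 rose by 1.27 and 0.94, and the embryonic globin gene Hbb-bh1 differed by -2.82 and -3.21. Their summed intensity was 1284 to 1364 in activated and 1075 to 1351 in wildtype arrays of the higher run, against 932 to 1649 in activated and 1116 to 1952 in wildtype arrays of the lower run, which overlap.

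In the remaining lists the run calls differed by genotype or none was made. Of 7 nephron progenitor genes, 3 rose in activated arrays (Six2, Cited1 and Capn6) and 0 changed in wildtype arrays. Of 7 stromal genes, Col3a1 rose by 0.47 in activated arrays, and Foxd1 and Aldh1a2 fell by 0.65 and 0.61 in wildtype arrays. Of 4 podocyte genes, Podxl rose by 1.29 in wildtype arrays, and the list medians were 0.48 in activated and 0.40 in wildtype arrays. Their summed intensity was 988 to 1094 in activated and 1038 to 1174 in wildtype arrays of the higher run. In the lower run it was 641 to 828 and 837 to 902, with no overlap between the runs. Of 6 distal tubule, 6 endothelial, 3 trophoblast and 3 neural crest genes, 0 passed in any of the 6 comparisons, and the summed intensity of the trophoblast genes, markers of a tissue that also uses Elf5, was at most 58.1 on any array. By genotype in the lower run 4 nephron progenitor genes fell (Six2 by 2.01) and 2 stromal genes fell (Aldh1a2 by 1.09). The part of these cell types in the run differences of the members was not tested.

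RNA or labelling quality also varied between arrays, as read from the 5' over the 3' control probe sets for Gapdh and beta-actin. The mean log2 ratio was -0.26 on activated 2 and -1.06 on activated 6, then -1.43 on wildtype 2, and between -2.43 and -1.87 on the other arrays. A negative ratio means less 5' than 3' signal, so activated 2 and activated 6 were the arrays nearest to equal signal. Krt18 was highest in the series on activated 6 (10.62) and activated 2 (10.14). Cldn4 was highest on activated 6 too (8.06), and activated 2 was the highest of the lower run (7.44). Upk3a and Aqp3 were the lowest of the higher run on activated 6, at 6.15 and 5.37, as was Wfdc2 at 9.67. Elf5 was the lowest of its run on both activated 2 (6.02) and activated 6 (7.08). So was Grhl2, at 6.86 and 6.58. Both arrays are activated, so the genotype differences of Elf5 and Grhl2 include these low values. Over all alternatives, the ratio settings among them, those differences ran from -0.72 to -0.38 for Elf5 and from -0.30 to -0.06 for Grhl2. The cause was not tested.

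With this ratio as a term, a choice made after the data were seen, 6 members passed for the run in each genotype, while the share of all genes that passed was 7.67% in activated and 9.43% in wildtype arrays. In wildtype arrays Upk3a, Krt7 and Wfdc2 were joined by Cldn4 (0.74, adjusted p = 0.0476 by limma), Aqp2 (1.23, adjusted p = 0.00864) and Aqp3 (0.81, adjusted p = 0.0452). In activated arrays Upk3a and Tfap2a were joined by Krt7 (1.31), Krt18 (0.92, adjusted p = 0.00155), Cldn4 (1.25) and Aqp2 (1.27). Over all alternatives the adjusted p of Krt18 in activated arrays ran from 0.00155 to 0.98. Without activated 2 and activated 6 the run difference of Upk3a in activated arrays was 2.35 (adjusted p = 0.0332 by limma) and that of Tfap2a -1.14 (adjusted p = 0.0392 by limma). For genotype no member passed with or without the ratio.

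**Figure D4:**
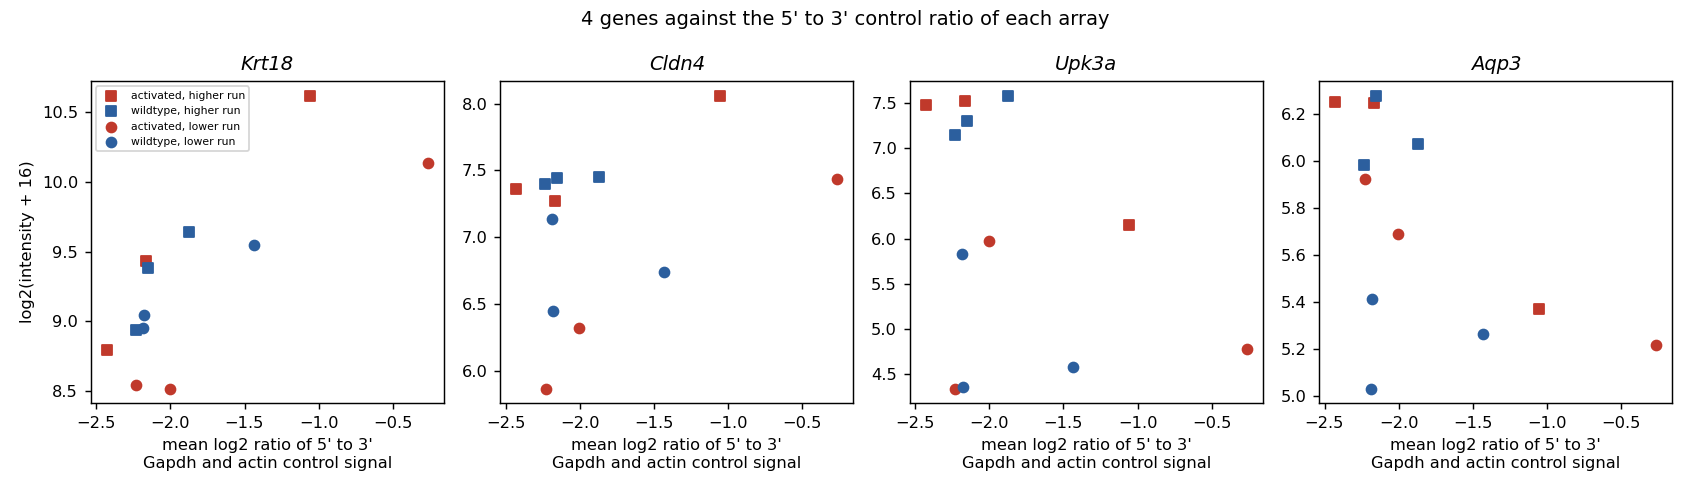
Level of Krt18, Cldn4, Upk3a and Aqp3 on each array, as log2(intensity + 16), against the array's mean log2 ratio of 5' to 3' control signal (Gapdh and beta-actin), with colours for genotype and squares for the higher run. Activated 2 (ratio -0.26) and activated 6 (ratio -1.06) lie apart on the right, high for Krt18 and, for activated 6, low for Upk3a and Aqp3 within the higher run.

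After the 4 group means were removed, the members did not vary as one block over the 12 arrays. The extremes of all pairs are given here. Elf5 and Grhl2 had the highest value (Pearson's r = 0.855), followed by Krt18 and Cldn4 (r = 0.775), while Cldn4 and Aqp3 had the lowest (r = -0.873). Other pairs lay near 0, such as Krt7 and Grhl2 (r = 0.015). These values describe 12 arrays that share the differences in control ratio given above.

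Genes outside the list whose pattern was most like the mean of the members' standardised values over the 12 arrays were found by Pearson's r. They were Lad1 (ladinin, a basement membrane protein, r = 0.951), Rab11a (a recycling endosome GTPase, 0.947), Krt8 (0.939), Cdh16 (kidney-specific cadherin, 0.939) and Scd2 (a fatty acid desaturase, 0.937). Within the lower run their r lay between 0.694 and 0.844 and within the higher run between 0.788 and 0.862, over 6 arrays each. For the most variable 3 members, the closest were Ank (r = 0.957) and Gpr146 (0.942) for Upk3a, Sh2b2 (0.940) and Rab11a (0.928) for Krt7, and Krt8 (0.909) and Batf3 (0.906) for Aqp2. The likeness differed between the runs for some pairs: for Aqp2 and Krt8 r was 0.407 within the higher and 0.937 within the lower run.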

How the data were processed

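The authors' deposited table holds 1 intensity per probe set and array, on a linear scale. The 12 arrays had the same mean after 2% was trimmed from each end (250.1), so the authors had scaled each array before deposition; the sources used here do not name the software. The intensities were taken as log2(intensity + 16), which understates the changes of dim genes, quantile normalised over all probe sets and tested with limma 3.58.1 in R 4.3.3 (moderated variances with a trend), with p-values adjusted by Benjamini-Hochberg over 12393 genes and called under 0.05. Of the probe sets, 20380 had 1 gene symbol in the platform annotation, 691 had several, 1555 had none listed and 64 were controls; only the first were used. Each gene was read from its probe set of highest mean. The number of arrays limits the precision.

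The genotypes were compared over all 12 arrays and within each run; the run contrasts and the difference of the genotype effects came from 1 fit of 4 groups. Replicate numbers only name arrays. Named genes were the members, Ctnnb1, Cdh1, Epcam, Krt8 and Krt19, up to 4 genes of each of 4 epithelial and 10 marker lists by smallest adjusted p with any that passed, and the genes of closest pattern. The members and lists were chosen with earlier results of these data known. Alternatives were other normalisations, pseudocounts of 1 and 64, removal of the dimmest 40% of genes, other uses of probe sets, other variance models, array weights, other fits and each array left out; the 5' to 3' control ratio settings were added after the data were seen. The calculations were tested on simulated data. Start regions are RefSeq's. Plots used matplotlib 3.10.9.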

Additional observations from a re-analysis of the deposited data

How the results depend on the processing

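No paired analysis was possible because the labels pair no sample of one genotype with one of the other. For genotype, over all arrays, within each run and in the difference between runs, 0 of the 10 members passed under any setting. For the run, 2 to 6 members passed in wildtype and 1 to 7 in activated arrays. In activated arrays the members passing numbered 7 with array weights (8.15% of all genes passed), 6 with the 5' to 3' control ratio as a term (7.67%), 4 without activated 2 and activated 6 (3.61%), 1 in a separate fit of the genotype (2.78%), and 1 to 4 when arrays were left out in turn. In wildtype arrays they numbered 5 with array weights (8.22% of all genes passed), 6 with the ratio as a term (9.43%) and 5 without those 2 arrays (8.3%). Calls over all genes ranged with the setting from 0 to 52 (3 as reported) for genotype over all arrays, 30 to 188 (74) in the lower run, 0 to 3 (1) in the higher run, 16 to 88 (41) for the difference of genotype effects, 361 to 1169 (640) between runs in wildtype and 345 to 1010 (609) in activated arrays. The lowest of these came without activated 1 (30), without wildtype 4 or activated 3 (16), without wildtype 4 (361) and in the separate fit (345); without wildtype 2 or wildtype 5 the wildtype count was 403 and 379, and without activated 5 the activated count was 352.

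Small genotype differences changed sign. Over all arrays, Krt7 was at 0.0232 with a pseudocount of 1. Krt18 was at -0.0178 with array weights, at -0.21 with run and control ratio as terms and at -0.43 without activated 2 and activated 6, and Upk3a was at 0.0334 and 0.20 under the last pair of settings. Grhl2 was at 0.0742 in the lower run with the mean of its probe sets, and Aqp3 at 0.0198 in the higher run with array weights. The difference of genotype effects of Aqp2 was 0.57 with a pseudocount of 1 and 0.0472 with array weights. The run difference of Grhl2 in wildtype arrays was -0.0027 with a pseudocount of 64, -0.0125 with array weights and -0.0332 with the ratio as a term. The cause was not tested.

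With arrays left out in turn, the genotype difference over all arrays ran from -0.45 to 0.25 for Upk3a, -0.30 to 0.29 for Krt7, -0.17 to 0.25 for Krt18, -0.25 to 0.19 for Cldn4 and -0.0178 to 0.23 for Aqp3. In the lower run it ran from -0.36 to 0.56 for Upk3a, -0.065 to 0.56 for Krt7, -0.65 to 0.16 for Krt18, -0.68 to 0.11 for Cldn4, -0.22 to 0.38 for Wfdc2 and -0.0742 to 0.17 for Tfap2a. In the higher run it ran from -0.53 to 0.16 for Upk3a, -0.46 to 0.0373 for Krt7, -0.21 to 0.71 for Krt18, -0.12 to 0.28 for Cldn4 and -0.30 to 0.14 for Aqp3. The difference of genotype effects ran from -0.86 to 0.0729 for Upk3a, -0.0932 to 0.94 for Krt18, -0.31 to 0.0396 for Grhl2 and -0.34 to 0.33 for Aqp2. The run difference in wildtype arrays ran from -0.0216 to 0.33 for Krt18 and -0.11 to 0.18 for Grhl2, and in activated arrays from -0.30 to 0.0409 for Grhl2. Signal over background limits Upk3a, Aqp2 and Aqp3, whose lower-run values were mostly no higher than the bacterial controls. Of the other run calls named, those of Spint1 in wildtype arrays (15 of 25 settings passed), of Car2 and Spint2 (17 of 25 each), Ehf (18 of 25) and Lrp2 (18 of 24) in activated arrays were lost most often.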
